A study of Homo sapiens with 6 samples.

Results

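The 10 genes described here form the KMT2, SETD and NSD1 group, named for histone lysine methyltransferases: KMT2A, KMT2B, KMT2C, KMT2D, KMT2E, SETD1A, SETD1B, SETD2, NSD1 and ASH1L. They were chosen by symbol, each had 1 row of its own among the 47577 loci of the expression table, and all 10 passed the minimum for expression, which asked for 10 or more normalized reads in 3 or more libraries and was met by 17568 loci in all. RNA-seq of polyA plus RNA compared OVCAR3 cells, an established line of high-grade serous ovarian adenocarcinoma, after 6 h in DMSO, the solvent (3 libraries), or in 200 nM THZ531, a compound that binds CDK12 and CDK13 covalently and inhibits both (3 libraries). All 6 libraries came from this single line, carry no genetic change introduced by the study and are described as biological repeats. Every p-value therefore refers to the spread between these cultures, which limma estimates for a locus in part from all loci tested. The sample titles name THZ531, whereas the treatment protocol speaks of THZ1, a related compound, also at 200 nM. Samples were grouped by title.

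KMT2A to KMT2D, SETD1A and SETD1B are the catalytic subunits of COMPASS complexes, which methylate lysine 4 of histone H3 (H3K4) at promoters and enhancers. SETD2 travels with elongating RNA polymerase II and places trimethylation on lysine 36 (H3K36) along gene bodies, while NSD1 and ASH1L write lower methylation states of the same residue. KMT2E carries a SET domain for which no methyltransferase activity is known, so its name as a methyltransferase rests on sequence. CDK12 and CDK13 phosphorylate the tail of RNA polymerase II during elongation, and the comparison asks how the transcripts of these genes responded when both kinases were inhibited. The genes span 20876 bases (KMT2B) to 301079 bases (KMT2C).

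The libraries held 53054048 to 70986130 reads on genes, and the reads of a member in a library ranged from 108 for KMT2A to 7743 for NSD1. The deposited values are the counts over the DESeq2 size factor of their library, and they are called normalized reads below. Their sum was 55389676 to 56639224 in DMSO and 65875609 to 66820371 in THZ531. Relative to the deposited scaling, giving the libraries the same total moved the median log2 fold change of all loci from -0.01 to -0.25, the upper quartile moved it to 0.11, and RPL34, the transcript used as qPCR reference in the study, moved it to -0.50. All 12 ovarian and epithelial markers examined were present in both groups, with PAX8 at 11272 normalized reads in DMSO and 1241 in THZ531. The summed level of 13 markers of other cell types was 1843 to 1879 in DMSO and 3024 to 3178 in THZ531, most of it COL1A1, and the leukocyte, endothelial or stromal genes at 0 in every library of a group numbered 1 in DMSO and 3 in THZ531. The part of these markers in the results was not tested. CDK12 itself was at 6762 ± 105 normalized reads in DMSO and 8835 ± 357 in THZ531 (SD, n = 3), and CDK13 at 3918 ± 149 and 3863 ± 44.8. In bulk RNA, fewer cells with a transcript and less of it per cell cannot be told apart.

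Under the deposited scaling KMT2C, KMT2E and SETD2 rose, NSD1 fell, and the other 6 genes were not called regulated, which required a change of 1.5-fold or more together with an unadjusted p no higher than 0.05 (limma on log2(value + 1)). Of all loci tested, 15.7% rose and 23.9% fell by this rule (39.5% in either direction), so that 3 of 10 up, 1 of 10 down and 4 of 10 together stand beside those shares. Among the tested loci with a symbol, as all members have, 13.3% rose and 23.7% fell (37.0% together). By the Benjamini-Hochberg adjusted p alone, 6 members differed (3 higher and 3 lower), against 68.6% of all loci (34.6% higher and 34.1% lower). The 2 groups of libraries did not overlap for 5 members (3 higher and 2 lower), against 71.7% of all loci (36% higher and 35.7% lower). The median log2 fold change of the members was 0.08, and it was -0.01 over all loci tested. Single members ranged from -0.69 to 0.84, and 7 of 10 lay above 0. The split of the calls depended on the scaling of the libraries: it was 1 up and 2 down with libraries at the same total, 3 up and 0 down at the same upper quartile, and 0 up and 3 down relative to RPL34. The shares of all loci given above hold for the deposited scaling alone. Each other scaling shifts all loci, and no share is given for it, so these counts are not a result about the members. By substrate, 1 of the 6 H3K4 writers (KMT2C) and 2 of the 3 H3K36 writers (SETD2 up, NSD1 down) were regulated under the deposited scaling. This split also changed with the scaling. The members called were KMT2C, SETD1B and NSD1 at the same total and KMT2C, KMT2E and SETD2 at the upper quartile. Relative to RPL34 they were KMT2D, SETD1B and NSD1. A difference by substrate was not tested.

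**Figure D1:**
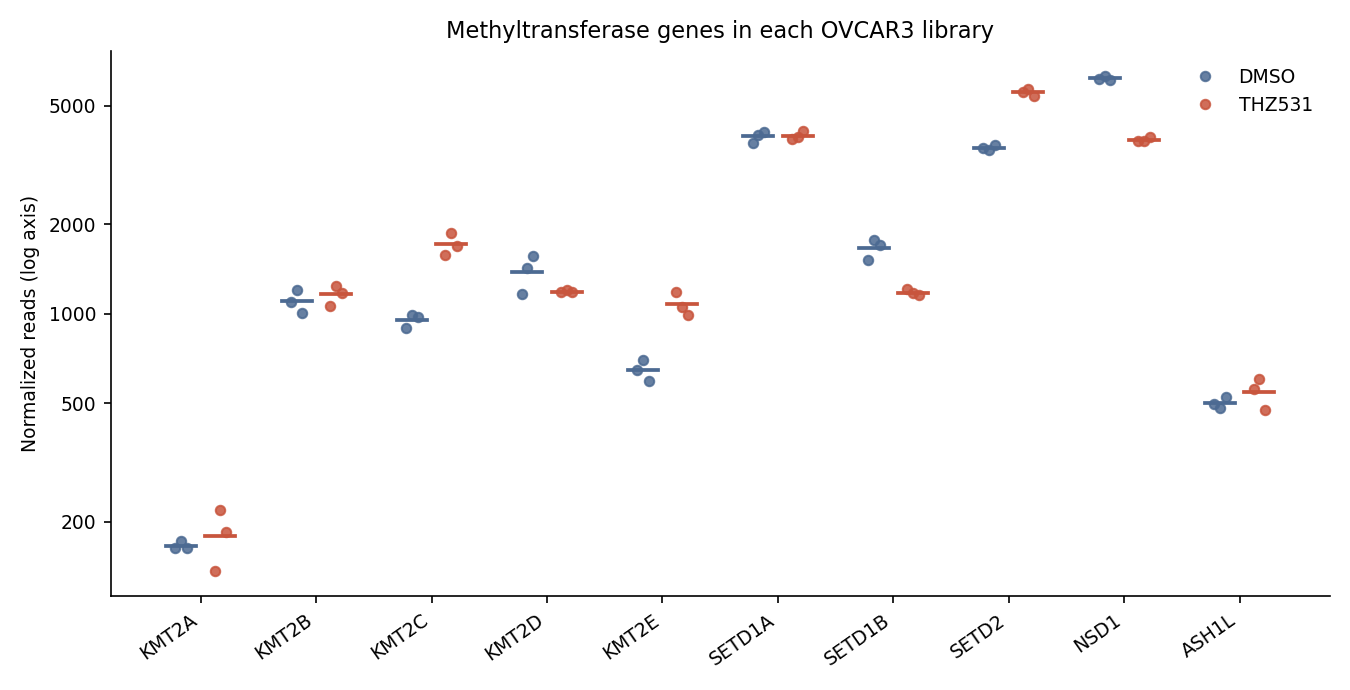
Normalized reads (log axis) of the 10 genes in each library, with DMSO in blue, THZ531 in red and a bar at the mean of the 3 libraries. The groups are apart for KMT2C, KMT2E and SETD2, which are higher in THZ531, and for NSD1 and SETD1B, which are lower.

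Levels can be set beside each other only per length. Divided by the spliced length of the representative transcript, the DMSO level was highest for SETD1A, at 658 ± 30.2 normalized reads per kb (SD, n = 3). NSD1 followed at 475 ± 8.52 and SETD2 at 423 ± 7.93 on the same scale. These 3 genes thus stood well above the rest of the group. SETD1B was at 194 ± 15.2 and KMT2B at 129.6 ± 11.5 normalized reads per kb. KMT2E, KMT2D, KMT2C and ASH1L lay between 83.2 and 41.6, and KMT2A was last at 10.0 ± 0.342. In this order only the neighbours KMT2D and KMT2C had libraries that overlapped. In THZ531 KMT2A was again last, and SETD1A again had the highest mean, 662 ± 20.5 normalized reads per kb. Its libraries (647, 654 and 685) overlapped those of SETD2 (651, 665 and 631), so the first place was not separated there. SETD2 (649 ± 17.3 normalized reads per kb) then stood above NSD1 (295 ± 5.14), whereas NSD1 stood above SETD2 in every DMSO library.

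Among the H3K4 writers, KMT2C was the gene called regulated under the deposited scaling, while at the same total and relative to RPL34 SETD1B had the larger change. KMT2C (GSHG0041287, hg38 chromosome 7, 152134925 to 152436003, minus strand) encodes a catalytic subunit of the complexes that monomethylate H3K4 at enhancers. It was counted at 896, 991 and 972 normalized reads in DMSO replicates 1, 2 and 3, and at 1578, 1865 and 1686 in THZ531 replicates 1, 2 and 3. Every THZ531 library lay above every DMSO library. The means of the groups were 953 ± 50.5 and 1709.8 ± 145 (SD, n = 3), and the log2 fold change was 0.84 (SE 0.07, 95% interval 0.69 to 0.99, limma adjusted p = 3.1e-08). The direction was the same under the other scalings, with log2 fold changes down to 0.35 relative to RPL34, where the call was lost. Near-identical copies of part of KMT2C lie in the BAGE loci, which the table counts as 1 locus of 4 joined symbols, and reads could have been split between them. That locus was at 677 ± 52.4 normalized reads in DMSO and 1011 ± 86.0 in THZ531.

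KMT2D (chromosome 12, 49018978 to 49060794, minus strand) encodes the paralog of KMT2C in the same type of complex. It was counted at 1164, 1421 and 1562 normalized reads in DMSO and at 1180.1, 1198 and 1179 in THZ531. DMSO replicate 1 lay below all THZ531 libraries, and the spread of the DMSO group was wide (SD 202, against 10.8 in THZ531). The log2 fold change was -0.21 (SE 0.09, 95% interval -0.39 to -0.03, limma adjusted p = 0.040), which is under the 1.5-fold limit. The unadjusted p was 0.011 with edgeR (log2 fold change -0.24) and 0.019 with DESeq2 (-0.22). Limma without a trend in the variance gave an unadjusted p of 0.13 for the change of -0.21, so the small p depended on the variance model. The adjusted p no longer passed without any 1 library other than DMSO replicate 1 (log2 fold change -0.22 to -0.12), and the log2 fold change was -0.33 without that one. At the same upper quartile the log2 fold change was -0.095, and relative to RPL34 it was -0.70 and the gene was called lower.

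The ratio of paralogs within a library does not depend on how libraries are scaled. KMT2C over KMT2D was 0.769, 0.698 and 0.622 in the DMSO libraries and 1.34, 1.56 and 1.43 in the THZ531 libraries. KMT2D thus had more reads than KMT2C in each DMSO library and fewer in each THZ531 library. The ratio was 2.07-fold higher in THZ531 (log2 difference 1.05, two-sided exact permutation p = 0.1, the smallest that 3 against 3 can give, adjusted p = 0.15 over 3 pairs). SETD1A over SETD1B was 2.46, 2.26 and 2.41 in DMSO and 3.20, 3.35 and 3.57 in THZ531, again without overlap. This ratio was 1.42-fold higher (log2 difference 0.50, exact permutation p = 0.1, adjusted p = 0.15). For KMT2A over KMT2B the log2 difference was 0.01 (exact permutation p = 1) and the groups overlapped.

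**Figure D2:**
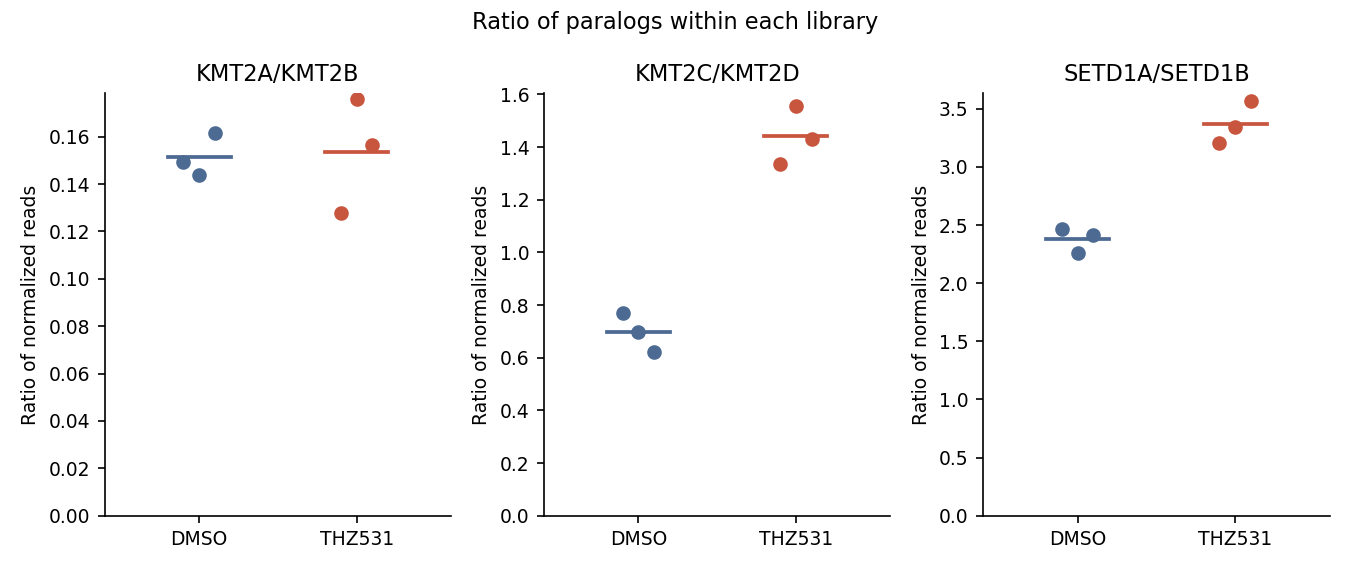
Ratio of normalized reads of 3 pairs of paralogs within each library (points), with a bar at the mean of the 3 libraries of a group. The groups are apart for KMT2C over KMT2D and for SETD1A over SETD1B, and overlap for KMT2A over KMT2B.

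SETD1A and SETD1B encode the catalytic subunits of the COMPASS complexes held to place most H3K4 trimethylation at promoters. SETD1B (chromosome 12, 121804009 to 121832656, plus strand) was counted at 1519, 1771 and 1697 normalized reads in DMSO and at 1209, 1171 and 1151 in THZ531. The highest THZ531 library lay below the lowest DMSO library. The mean was 1662 ± 130 and 1177 ± 29.4, a log2 fold change of -0.50 (SE 0.07, 95% interval -0.63 to -0.36, limma adjusted p = 5.4e-06), so SETD1B passed the p threshold but not the fold limit. At the same total its log2 fold change was -0.74 and relative to RPL34 -0.99, and it was then called lower. SETD1A (chromosome 16, 30957294 to 30984664, plus strand) was at 3944 ± 181 normalized reads in DMSO and 3966 ± 123 in THZ531. The groups overlapped and the log2 fold change was 0.01 (95% interval -0.09 to 0.11, limma adjusted p = 0.88), with negative values at the same total (-0.23) and relative to RPL34 (-0.48).

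KMT2A and KMT2B encode the pair of writers related to Drosophila Trithorax, and both bind menin. KMT2B (chromosome 19, 35718003 to 35738878, plus strand) was at 1100.1 ± 97.6 normalized reads in DMSO and 1161 ± 90.3 in THZ531, with a log2 fold change of 0.08 (95% interval -0.09 to 0.24, limma adjusted p = 0.39). KMT2A (chromosome 11, 118436490 to 118526832, plus strand) was counted at 163, 173 and 163 normalized reads in DMSO and at 136, 218 and 184 in THZ531. THZ531 replicates 1 and 2 lay on either side of the DMSO group. The log2 fold change of 0.09 had the widest interval of the 10 genes, -0.29 to 0.46 (limma adjusted p = 0.68). The signs of both genes turned at the same total (-0.16 for each) and relative to RPL34 (-0.40 for KMT2A and -0.41 for KMT2B).

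KMT2E (chromosome 7, 105014190 to 105115019, plus strand) encodes a PHD finger protein that binds trimethylated H3K4. It was counted at 647, 701 and 593 normalized reads in DMSO and at 1180.1, 1053 and 989 in THZ531. All THZ531 libraries lay above all DMSO libraries. The mean went from 647 ± 54.3 to 1074 ± 97.5, a log2 fold change of 0.73 (SE 0.09, 95% interval 0.55 to 0.91, limma adjusted p = 1.4e-06). The value stayed above 0 under the other scalings but under the 1.5-fold limit at the same total (0.49) and relative to RPL34 (0.24).

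The H3K36 writers included a rise and a fall. SETD2 (chromosome 3, 47016430 to 47164113, minus strand), the enzyme of H3K36 trimethylation, was counted at 3605, 3545 and 3679.9 normalized reads in DMSO and at 5563, 5682 and 5388 in THZ531. The groups were far apart, with SDs of 67.8 and 148. The log2 fold change was 0.62 (SE 0.04, 95% interval 0.53 to 0.71, limma adjusted p = 2.0e-09), close to the 1.5-fold limit of the call. It was 0.38 at the same total and 0.13 relative to RPL34, and SETD2 was not called under either.

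NSD1 (chromosome 5, 177133015 to 177300213, plus strand), a writer of H3K36 mono- and dimethylation, had the most reads of the group in DMSO. It was counted at 6147, 6314 and 6104 normalized reads in DMSO and at 3807, 3806 and 3923 in THZ531. The THZ531 libraries differed among themselves by far less than they did from DMSO. The mean went from 6188 ± 111 to 3845 ± 67.1, and the log2 fold change was -0.69 (SE 0.04, 95% interval -0.77 to -0.60, limma adjusted p = 3.9e-10). The value was below 0 under all 4 scalings, from -0.57 at the same upper quartile, where the call was lost, to -1.18 relative to RPL34. ASH1L (chromosome 1, 155335268 to 155562803, minus strand), an H3K36 methyltransferase of active genes, was counted at 495, 481 and 525 normalized reads in DMSO and at 559, 604 and 476 in THZ531. The groups overlapped, and the log2 fold change was 0.12 (95% interval -0.09 to 0.33, limma adjusted p = 0.30), with -0.12 at the same total and -0.37 relative to RPL34.

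**Figure D3:**
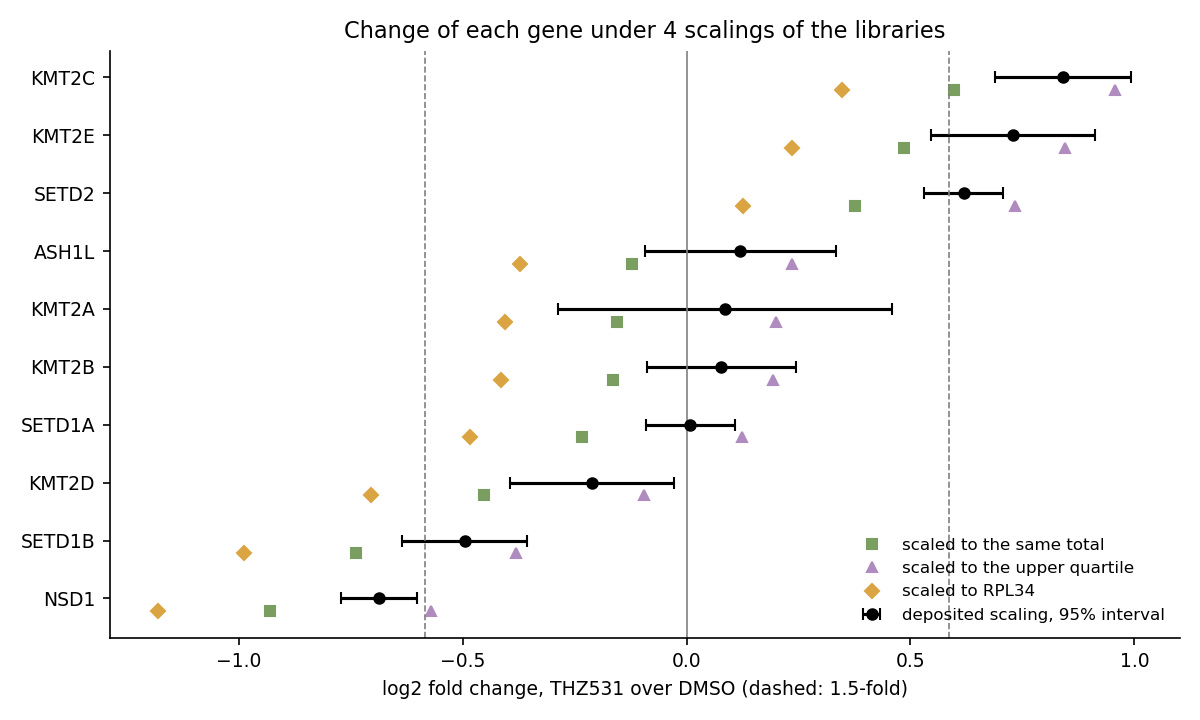
log2 fold change (THZ531 over DMSO) of each gene under the deposited scaling, with its 95% interval from limma (black), and under 3 other scalings of the libraries (coloured). KMT2C, KMT2E and SETD2 lie above 0 and KMT2D, SETD1B and NSD1 below 0 under each scaling, while ASH1L, KMT2A, KMT2B and SETD1A change sign.

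By the Euclidean distance between log2 profiles over the 6 libraries, each centred on its own mean, the named loci most like KMT2C were XIST (distance 0.07), AUNIP (0.10) and CNNM4 (0.10). Those most like NSD1 were the joined locus of TIAF1 and MYO18A (0.03), PPP4R3B (0.04) and ATF7 (0.04).

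The genes differ in intron structure. In the representative GENCODE transcripts the number of exons ranges from 17 in SETD1B to 59 in KMT2C, and the share of the gene span in introns from 50.7% in KMT2D to 94.7% in ASH1L. A first intron of more than 20000 bases is found in KMT2A, KMT2C, KMT2E, SETD2 and ASH1L (23590 to 76950 bases). The 3 genes that rose under the deposited scaling are among these 5. None of these 5 fell, and their log2 fold changes were 0.09 to 0.84. In KMT2B, KMT2D, SETD1A, SETD1B and NSD1 the first intron has 490 to 4251 bases. None of these 5 rose under that scaling, and their log2 fold changes were -0.69 to 0.08. NSD1, the gene that fell, has its longest intron, 55853 bases, as the second. At the same total only KMT2C was called higher. Relative to RPL34 no member was, and KMT2A (-0.40) and ASH1L (-0.37) then lay below 0. The cut at 20000 bases was set after the values were seen, the genes are not replicates, and no test was made. Loci outside the group were not split by first intron. Over all loci, 15.7% rose and 23.9% fell under the deposited scaling.

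**Figure D4:**
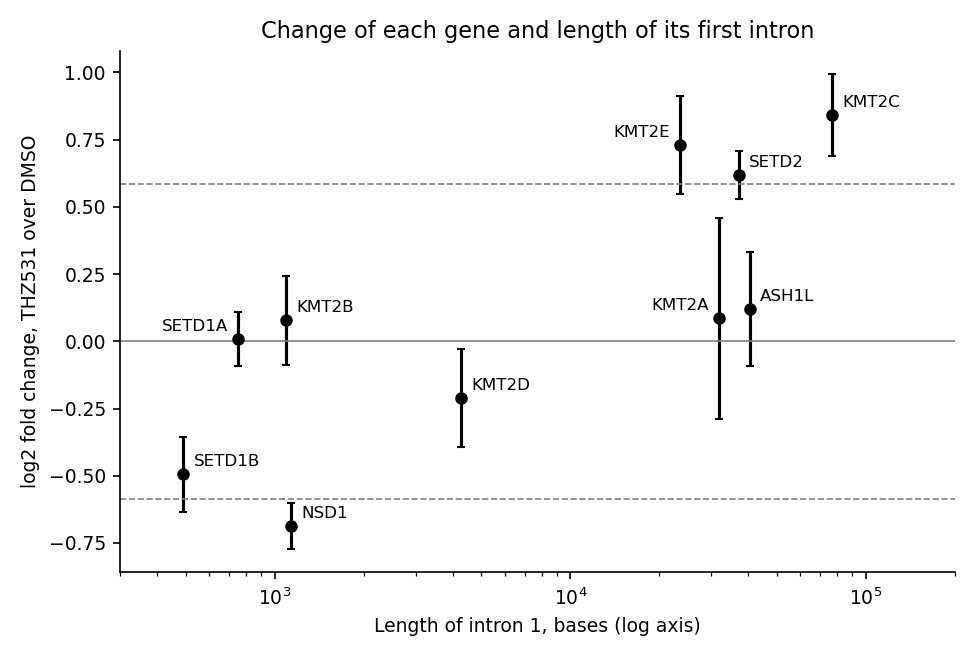
log2 fold change of each gene (deposited scaling, with its 95% interval from limma) against the length of its first intron in bases on a log axis. The 3 genes above the upper dashed line (1.5-fold) all have a first intron of at least 23590 bases, and those with shorter first introns lie at or below 0.08.

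The table also holds 15 loci whose coordinates lie wholly inside a member, 14 of them without a symbol, in 5 of the genes. Only 2 passed the minimum for expression, and they did so through their THZ531 libraries, since at most 1 DMSO library of either reached 10 normalized reads. Both were called higher under each of the 4 scalings, a direction that the minimum itself favoured, so their values are a description. Of all loci without a symbol that were tested, 31.1% rose and 25.3% fell. The strand of loci without a symbol was read from the order of their identifiers, which gave the annotated strand for 98.9% of 22330 named loci.

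In KMT2A, whose own count did not differ between the groups beyond the spread, a locus of 1967 bases (GSHG0006792, hg38 chromosome 11, 118437192 to 118439158, plus strand) lies in intron 1 of 35, from base 248 to base 2214 of the intron. GENCODE annotates a retained intron transcript with the same start there (ENST00000647638.1), which ends 15 bases further on. The locus had 4.76, 6.5 and 0 normalized reads in DMSO and 41.6, 56.8 and 61.4 in THZ531. The level was 53.3 ± 10.4 against 3.75 ± 3.36 (log2 fold change 3.93, SE 0.67, set in part by the pseudocount of 1 because the DMSO values are near 0). All DMSO values were under the minimum of 10, so the locus could enter the comparison only by being higher in THZ531. The last bases of the locus and the first bases after it, from hg38, are shown because they hold a run of A, with the 15 A that directly follow its last base in capitals:
KMT2A intron 1, chr11:118439119-118439198, plus strand: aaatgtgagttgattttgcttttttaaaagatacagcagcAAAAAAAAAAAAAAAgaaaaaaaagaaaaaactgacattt
Of the 20 bases after the end 19 are A, and the locus holds neither AATAAA nor ATTAAA, the main hexamers of polyadenylation signals, on its own strand. At least 14 A in the next 20 bases were found for 39.5% of the expressed loci without a symbol that could be given a strand. The library selected polyA RNA, and whether reads arose from this A-rich stretch was not tested.

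In SETD2, a locus of 646 bases (GSHG0031238, hg38 chromosome 3, 47079741 to 47080386, minus strand) lies in intron 12 of 20, from base 3334 to base 3979 of its 16601 bases. It falls within an exon of an alternative protein-coding transcript in GENCODE (ENST00000685399.1) and ends 1 base short of that exon. It had 7.94, 13.9 and 6.38 normalized reads in DMSO and 84.4, 88.7 and 63.7 in THZ531. The level was 78.9 ± 13.3 in THZ531 and 9.41 ± 3.98 in DMSO (log2 fold change 2.99, SE 0.38), and it met the minimum in 1 DMSO library and in all 3 THZ531 libraries. The last 30 bases of the locus are shown because an AATAAA hexamer (capitals) lies in them, with 16 bases between it and the end:
SETD2 intron 12, chr3:47079741-47079770, minus strand: tttttgtaAATAAAattttctttgaaacac
AATAAA was found in the last 40 bases of 26.0% of the expressed loci without a symbol and at the annotated ends of 6 of the 10 members themselves. A hexamer is a match of letters and not a measured cleavage site. SETD2 as a whole had 1.54-fold more reads in THZ531 under the deposited scaling, so the locus and its gene differed from DMSO in the same direction.

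Antisense and head-to-head loci within 5000 bases of a member that passed the minimum numbered 9, of which 5 overlapped the member and 4 started upstream of it on the opposite strand. Of the 4 head-to-head loci, 3 were called higher and 1 lower under the deposited scaling, beside 15.7% and 23.9% of all loci. Among these 3, the locus GSHG0008311 could only be called higher because all its DMSO values were under the minimum, and KMT2E-AS1 was not called relative to RPL34. KMT2E-AS1, an antisense RNA that starts beside KMT2E, was at 202, 262 and 281 normalized reads in DMSO and at 486, 529.7 and 509 in THZ531. It rose together with KMT2E, by a log2 fold change of 1.04 (SE 0.13, limma adjusted p = 1.8e-06), and its log2 fold change relative to RPL34 was 0.55. The RefSeq bases before the KMT2E start (GRCh38.p14, plus strand) are shown because both transcripts start there, with the 63 bases between the annotated starts in capitals:
KMT2E, chr7:105013955-105014204: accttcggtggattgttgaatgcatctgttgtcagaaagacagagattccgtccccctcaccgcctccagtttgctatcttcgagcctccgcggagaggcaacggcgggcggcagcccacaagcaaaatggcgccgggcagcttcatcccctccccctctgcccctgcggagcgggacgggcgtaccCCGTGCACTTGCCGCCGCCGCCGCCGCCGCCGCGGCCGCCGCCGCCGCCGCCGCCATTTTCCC
G and C make up 85.7% of the stretch in capitals and 68.8% of the 250 bases, and the median over the same bases of 35116 RefSeq promoters was 58%. A RefSeq promoter entry was found for 9 of the 10 members.

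LINC01089, a long noncoding RNA that starts 524 bases upstream of SETD1B on the opposite strand, had 379, 351 and 358 normalized reads in DMSO and 969.8, 1111 and 924 in THZ531. It rose by a log2 fold change of 1.46 (SE 0.09, limma adjusted p = 7.3e-10), while SETD1B had fewer reads in every THZ531 library, under the deposited scaling. KIF9-AS1, 256 bases upstream of SETD2, was lower, at 34.2 ± 8.03 normalized reads in THZ531 and 60.0 ± 7.32 in DMSO (log2 fold change -0.81, limma adjusted p = 0.022), in contrast to SETD2. Without DMSO replicate 2 or without THZ531 replicate 2 it was no longer called (log2 fold change -0.72 and -0.61). A locus without a symbol (GSHG0008311) that starts 1284 bases upstream of KMT2A had 1.6 to 4.76 normalized reads in DMSO and 14.8 to 44.1 in THZ531, and it passed the minimum only through THZ531.

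Of the 5 loci that overlapped a member on the opposite strand, 1 rose and 4 were not called, where 15.7% of all loci rose and 23.9% fell. DDN-AS1, which overlaps the end of KMT2D, rose from 17.1 ± 5.87 to 63.9 ± 12.5 normalized reads (log2 fold change 1.87, SE 0.35, limma adjusted p = 1.7e-04). It had 16 to 62 reads per library. Its span, 48998347 to 49019240, meets KMT2D only from base 49018978 and holds all of PRKAG1 (49002274 to 49018779), also on the opposite strand. The other 4 were IGFLR1 opposite KMT2B (log2 fold change 0.10), MAPK3 opposite SETD1A (-0.02), SLC50A1 opposite ASH1L (0.02) and ASH1L-AS1 (0.07). The spans listed for MAPK3 and SLC50A1 run across several genes beyond their own. The libraries were made with a kit that keeps the strand, but the strand setting of the counting is not given in the sources used here, so reads of overlapping loci may not be fully separated.

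**Figure D5:**
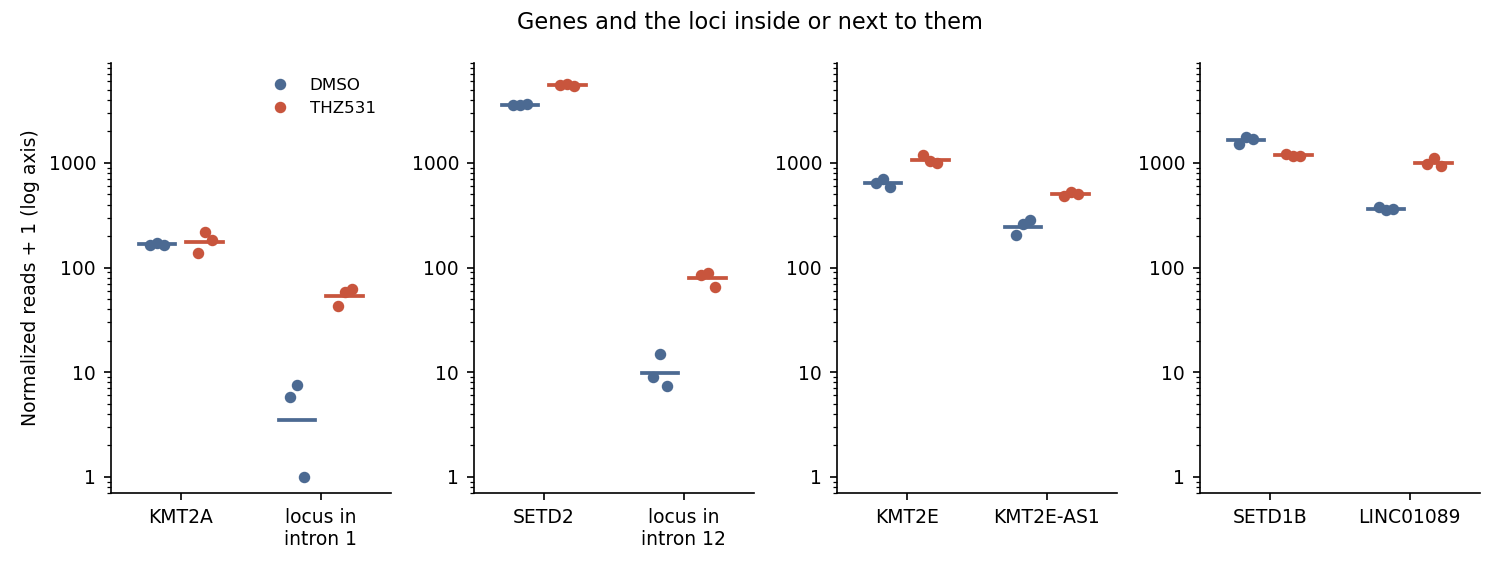
Normalized reads plus 1 (log axis) in each library for KMT2A and SETD2 with the locus inside each, and for KMT2E and SETD1B with the noncoding RNA that starts beside each. Bars mark the mean on the log scale of 3 libraries, and the 4 loci are higher in every THZ531 library, while KMT2A overlaps between the groups and SETD1B is lower.

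The proteins that work with the members were read from hand-written lists. Of 16 subunits of COMPASS complexes 3 rose and 0 fell under the deposited scaling, namely HCFC2 (log2 fold change 1.16), HCFC1 (0.76), a subunit of the SETD1 and KMT2A/B complexes, and KDM6A (0.69), the H3K27 demethylase bound to KMT2C and KMT2D. Over all loci 15.7% rose and 23.9% fell. By adjusted p, 10 were higher and 3 lower under the deposited scaling, beside 34.6% and 34.1% of all loci. These counts were 7 and 6 at the same total and 3 and 8 relative to RPL34. For this list and the lists below, shares of all loci are given for the deposited scaling alone. Counts under the other scalings cannot be set beside those shares, because each scaling shifts all loci. The 16 subunits had a median log2 fold change of 0.30, which was 0.05 at the same total and -0.20 relative to RPL34, where 1 rose and 3 fell. Among 15 readers of H3K4 methylation 3 rose and 2 fell, with ING1 (1.30), DIDO1 (1.05) and SPIN1 (0.80) up and SGF29 (-1.72) and ING4 (-1.04) down, but 1 rose and 5 fell relative to RPL34. Among 20 partners of SETD2 and readers of H3K36 methylation 2 rose and 1 fell: MSH6 (0.67), the mismatch repair protein with a PWWP domain, MORF4L1 (0.60), and ZMYND11 (-0.59). The last count was 0 up and 6 down relative to RPL34 and 5 up and 0 down at the same upper quartile. It also rested on single libraries, since MORF4L1 was not called without DMSO replicate 1 or THZ531 replicate 2 (0.58 in both) and ZMYND11 not without DMSO replicate 3, THZ531 replicate 1 or THZ531 replicate 2 (-0.57 to -0.55).

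Among 13 demethylases of H3K4 and H3K36, 2 rose and 3 fell under the deposited scaling, where 15.7% of all loci rose and 23.9% fell. KDM1A (0.69 on the log2 scale), which removes mono- and dimethylation of H3K4, and KDM4C (0.62) were higher, and KDM8 (-1.44), RIOX1 (-1.35) and KDM4B (-0.59) were lower, while relative to RPL34 0 rose and 4 fell. KDM4C was not called without DMSO replicate 2 (0.58), and KDM4B not without DMSO replicate 1, DMSO replicate 2 or THZ531 replicate 2 (-0.58 to -0.52). Of 26 other lysine methyltransferases 4 rose and 5 fell under the deposited scaling, beside the same shares of all loci. Relative to RPL34, 2 of them rose and 10 fell. The largest rises in this list were in KMT5B (1.33), which writes H4K20 methylation, PRDM2 (1.12) and EZH2 (0.83), the catalytic subunit of PRC2. The largest falls were in SETD6 (-1.48), SETDB2 (-1.39) and EZH1 (-0.92), the paralog of EZH2.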

How the data were processed

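PolyA plus RNA of OVCAR3 cells was sequenced by the authors as 150-base read pairs. Reads were mapped to hg38 with STAR (version 2.7.5a per the submitters' processing notes; the methods name another version), counted on the FAST DB v2021_3 annotation with featureCounts and normalized with DESeq2. The table deposited by the authors holds a non-negative signal, the count of a locus over the size factor of its library. Because all values came out as whole multiples of 1 step (tolerance 0.01 reads), reads were recovered for edgeR and DESeq2. Every column was used.

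The members, gene lists, thresholds and tests were chosen with earlier results of these data known. The fit covered the 17568 loci that reached 10 normalized reads in 3 or more libraries, on log2(value + 1), with limma 3.58.1 (trended variance, no covariates) in R 4.3.3 and Benjamini-Hochberg adjustment over all of them. On this scale the change of low loci is understated. Regulated means changed by 1.5-fold or more with an unadjusted p no higher than 0.05. The fit was checked on simulated data. Ratios of paralogs were compared with two-sided exact permutation tests, computed with numpy 2.4.6. Exons, introns and strands are those of GENCODE on hg38, and promoters those of RefSeq.

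The text names all members, expressed loci inside them, expressed antisense and head-to-head neighbours within 5000 bases, up to 3 called genes per list and direction, the 3 nearest profiles of the highest and the lowest member, CDK12, CDK13 and RPL34. The BAGE locus was added for its similarity to KMT2C.

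Alternatives were pseudocounts of 0.1 and 10, no minimum and a minimum of 50, 3 other scalings (same total, upper quartile, RPL34), the replicate number as a block, edgeR 4.0.16 (quasi-likelihood), DESeq2 1.42.0, limma without a trend, loci with a symbol only, a fold change of 2, the adjusted p, and each library left out. Leaving out a library while keeping the loci tested was added after seeing the data.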

Additional observations from a re-analysis of the deposited data

How the results depend on the processing

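KMT2C, KMT2E and SETD2 up and NSD1 down were called with both other pseudocounts, both other minima, edgeR, DESeq2, limma without a trend, loci with a symbol only, the adjusted p and each library left out. Scaling changed the calls: 1 up and 2 down at the same total, 3 up and 0 down at the upper quartile, 0 up and 3 down relative to RPL34. Each scaling shifts all loci, and shares of all loci are given for the deposited scaling alone. By adjusted p, 5 to 7 members differed under the settings other than a fold change of 2, beside the 6 reported. No member reached a fold change of 2 (0 up and 0 down). The members' median log2 fold change was -0.16, 0.20 and -0.41 in the same order of scalings. Loci inside members that rose numbered 1 at a minimum of 50 and 0 when only loci with a symbol were kept, by construction, and 1 to 2 with a library left out. The count of 1 came without any 1 of the THZ531 libraries, since the KMT2A locus then missed the minimum. With the loci kept it was 2. The KMT2A/KMT2B log2 ratio difference was -0.10 to 0.13 with a library left out.

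Signs that turned belonged to genes that were not called. At the same total the log2 fold changes were -0.16 for KMT2A, -0.16 for KMT2B, -0.23 for SETD1A, -0.12 for ASH1L, -0.14 for IGFLR1, -0.23 for SLC50A1 and -0.17 for ASH1L-AS1. Relative to RPL34 they were -0.40, -0.41, -0.48, -0.37, -0.39, -0.48 and -0.42. MAPK3 was at 0.10 at the upper quartile. With edgeR SETD1A was at -0.013 and SLC50A1 at -0.0058. With a library left out the range was -0.067 to 0.27 for KMT2A, -0.029 to 0.036 for SETD1A, -0.011 to 0.24 for IGFLR1, -0.056 to 0.024 for MAPK3, -0.020 to 0.039 for SLC50A1 and -0.091 to 0.23 for ASH1L-AS1. The cause of these changes was not tested, beyond the shift of all loci that each scaling makes.

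Replicate numbers did not pair the libraries, since the correlations of same-numbered deviations were 0.0017, 0.019 and -0.039. With the replicate block the members counted 3 up and 1 down and no member's call changed. The ratios of paralogs had an exact permutation p of 0.25 in the paired form for KMT2C/KMT2D, the smallest that 3 pairs allow. With 3 libraries a group, intervals cover the spread between these cultures alone, and KMT2A, at 108 to 205 reads per library, is the least precise member.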
